A study of Mus musculus with 10 samples.

Results

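Myc, the G1 cyclin genes Ccnd1, Ccnd2, Ccnd3, Ccne1 and Ccne2, the kinase gene Cdk6 and the CDK inhibitor genes Cdkn1a, Cdkn1b and Cdkn2b were examined in mouse hepatic stellate cells given amphiregulin (Areg). They are 10 of the 36047 genes with values, chosen by name for their part in the step from quiescence into the cell cycle. All 10 were among the 13362 genes with enough reads to be tested. Poly-A RNA was sequenced from 5 Areg libraries and 5 control libraries. Per the labels, both groups held quiescent stellate cells, which store vitamin A beside the liver sinusoids, from livers of C57BL/6 male mice, first kept in culture for 5 h. The Areg group then had recombinant mouse Areg, which binds and activates the EGF receptor, at 500 ng/mL in starving media for 4 h. The control group spent the same 4 h in starving media under what the labels call control. Both groups thus shared isolation, plating and starvation, and no freshly isolated or longer treated cells were analysed here. The labels do not tie libraries to separate animals or cultures, so every p-value here speaks for the spread among these 10 libraries, and that spread may be technical.

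As background, growth factor receptors signal through the ERK and AKT kinases to raise Myc and the D-type cyclins, which bind Cdk4 and Cdk6 and start to phosphorylate the retinoblastoma protein. E-type cyclins with Cdk2 finish that step and release the E2F factors that drive S phase genes, while the inhibitor proteins encoded by Cdkn1a, Cdkn1b and Cdkn2b hold these kinases back. In the liver, stellate cells are known to be largely outside the cell cycle until they are activated, as happens in injury and on plastic, when they divide and become matrix-producing myofibroblasts.

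Libraries held 14365027 to 20057962 estimated counts in the Areg group and 10125184 to 17566891 in the control group. Controls 3 and 4, which had the fewest counts, stood apart along principal component 1, where they scored 34.7 and 22.7 and the other 8 libraries -13.1 to 0.88. Their hepatocyte markers summed to 1580 to 1953 CPM (counts scaled to a common library total with TMM factors), against 1305 to 1590 CPM in the Areg libraries and 1139 to 1363 CPM in controls 1, 2 and 5. Of 9 hepatocyte markers, 1 was called higher and 1 lower with Areg by edgeR, where 8.34% of all genes were called higher and 8.32% lower. Stellate cell markers were all present and summed to 6295 to 6453 CPM with Areg and 6816 to 7330 CPM in controls, with 0 of 11 called higher and 3 called lower. Sinusoidal endothelial markers were nearly as high, at 5335 to 5417 CPM with Areg and 5350 to 5937 CPM in controls (0 of 9 called higher, 1 lower), with Cdh5 at 2587 and 2747 CPM. Kupffer cell markers reached 547 to 596 CPM with Areg and 553 to 610 CPM in controls, with 0 of 10 called by edgeR and 0 with an unadjusted p under 0.05. Markers of the other cell types stayed at 36.9 CPM or less in every library, and no listed marker was at 0 in all of them. Which cells held the RNA of the 10 genes therefore cannot be told apart, nor can fewer cells of a type from less RNA per cell.

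Cdkn2b, Cdkn1a and Ccnd3 are shown with their promoter windows because the data bear on them: Cdkn2b was the gene that differed, Cdkn1a was the most abundant, and Ccnd3 has a pair of start sites that were used unequally. RefSeq windows (GRCm38.p6, 250 bases before to 50 bases after a start site) were at hand for 6 of the 10 genes, 8 windows in all, and 5 are printed 5′ to 3′ on the gene's strand. Capitals mark matches to any of 5 motifs, searched on both strands. The E-box, CACGTG, is the sequence that Myc binds with Max. The TATA box was searched as TATAAA. The GC box, known to be bound by Sp1 and its relatives, was searched as GGGCGG. The AP-1 site, bound by Fos and Jun, was searched as TGANTCA. The forkhead site, bound by Foxo factors, was searched as TGTTTAC. No 2 of the matches in the printed windows overlapped.
Cdkn2b, chr4:89310983-89311282, minus strand: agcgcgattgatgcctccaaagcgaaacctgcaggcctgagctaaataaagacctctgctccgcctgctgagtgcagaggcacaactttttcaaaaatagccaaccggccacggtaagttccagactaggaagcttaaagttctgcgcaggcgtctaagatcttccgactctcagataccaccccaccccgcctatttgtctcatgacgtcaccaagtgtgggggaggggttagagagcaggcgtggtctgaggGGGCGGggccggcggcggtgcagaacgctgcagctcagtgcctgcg
Cdkn1a upstream start, chr17:29090729-29091028, plus strand: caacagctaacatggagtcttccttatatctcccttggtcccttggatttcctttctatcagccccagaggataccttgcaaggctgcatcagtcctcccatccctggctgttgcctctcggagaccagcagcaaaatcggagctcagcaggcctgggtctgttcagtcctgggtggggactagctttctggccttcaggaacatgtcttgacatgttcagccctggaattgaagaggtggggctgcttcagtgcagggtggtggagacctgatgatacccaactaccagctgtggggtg
Cdkn1a downstream start, chr17:29093519-29093818, plus strand: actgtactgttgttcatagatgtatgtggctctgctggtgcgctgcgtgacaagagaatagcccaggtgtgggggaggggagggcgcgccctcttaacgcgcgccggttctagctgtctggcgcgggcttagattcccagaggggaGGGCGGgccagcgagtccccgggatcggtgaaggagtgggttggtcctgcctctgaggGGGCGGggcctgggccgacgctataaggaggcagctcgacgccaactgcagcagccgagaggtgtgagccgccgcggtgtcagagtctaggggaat
Ccnd3 upstream start, chr17:47504801-47505100, plus strand: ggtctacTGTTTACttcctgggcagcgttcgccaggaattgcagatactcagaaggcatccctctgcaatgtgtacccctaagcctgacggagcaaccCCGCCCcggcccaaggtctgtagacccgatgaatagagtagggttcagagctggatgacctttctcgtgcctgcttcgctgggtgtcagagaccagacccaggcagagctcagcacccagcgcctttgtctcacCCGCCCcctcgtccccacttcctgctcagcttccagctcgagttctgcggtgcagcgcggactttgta
Ccnd3 downstream start, chr17:47593217-47593516, plus strand: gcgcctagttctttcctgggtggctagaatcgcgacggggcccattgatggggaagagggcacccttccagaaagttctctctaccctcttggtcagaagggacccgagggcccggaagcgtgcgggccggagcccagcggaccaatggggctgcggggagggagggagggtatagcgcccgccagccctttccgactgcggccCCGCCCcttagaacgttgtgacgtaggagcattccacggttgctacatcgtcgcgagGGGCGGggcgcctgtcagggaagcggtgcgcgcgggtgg

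With the start site as +1, the Cdkn2b window held a GC box at position 5. The downstream Cdkn1a window held GC boxes at -104 and -46, and its upstream window held none of the motifs. The upstream Ccnd3 window held GC boxes at -152 and -18 and a forkhead match at -243, and the downstream one held GC boxes at -46 and 12. An E-box was found in none of these 5 windows. Of the windows not printed, that of Cdk6 held an E-box at -220 and a TATA box at -103, that of Ccne1 held 4 GC boxes and that of Cdkn1b held 1 at -61. Over all 32851 RefSeq windows of this length, 35.7% held the GC box, 13.6% the TATA box, 7.81% the AP-1 site, 7.15% the E-box and 3.65% the forkhead site. These matches describe the letters in the windows.

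After 4 h with Areg, 1 of the 10 genes differed from control: Cdkn2b fell by 20.9%. Myc, the D-type and E-type cyclin genes, Cdk6, Cdkn1a and Cdkn1b did not pass the test, and their fitted changes lay between a log2 fold change of -0.30 for Ccnd3 and 0.10 for Ccnd2. A gene was called at an edgeR quasi-likelihood adjusted p under 0.05 (Benjamini-Hochberg over 13362 genes), and 16.7% of all genes were called, 8.34% higher and 8.32% lower with Areg. The share among the 10 genes was 10%. Their median log2 fold change was -0.09, against -0.01 over all genes, and their median absolute log2 fold change was 0.10, against 0.14. The groups of libraries overlapped for all 10 genes, while they did not overlap for 14.7% of all genes.

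**Figure D1:**
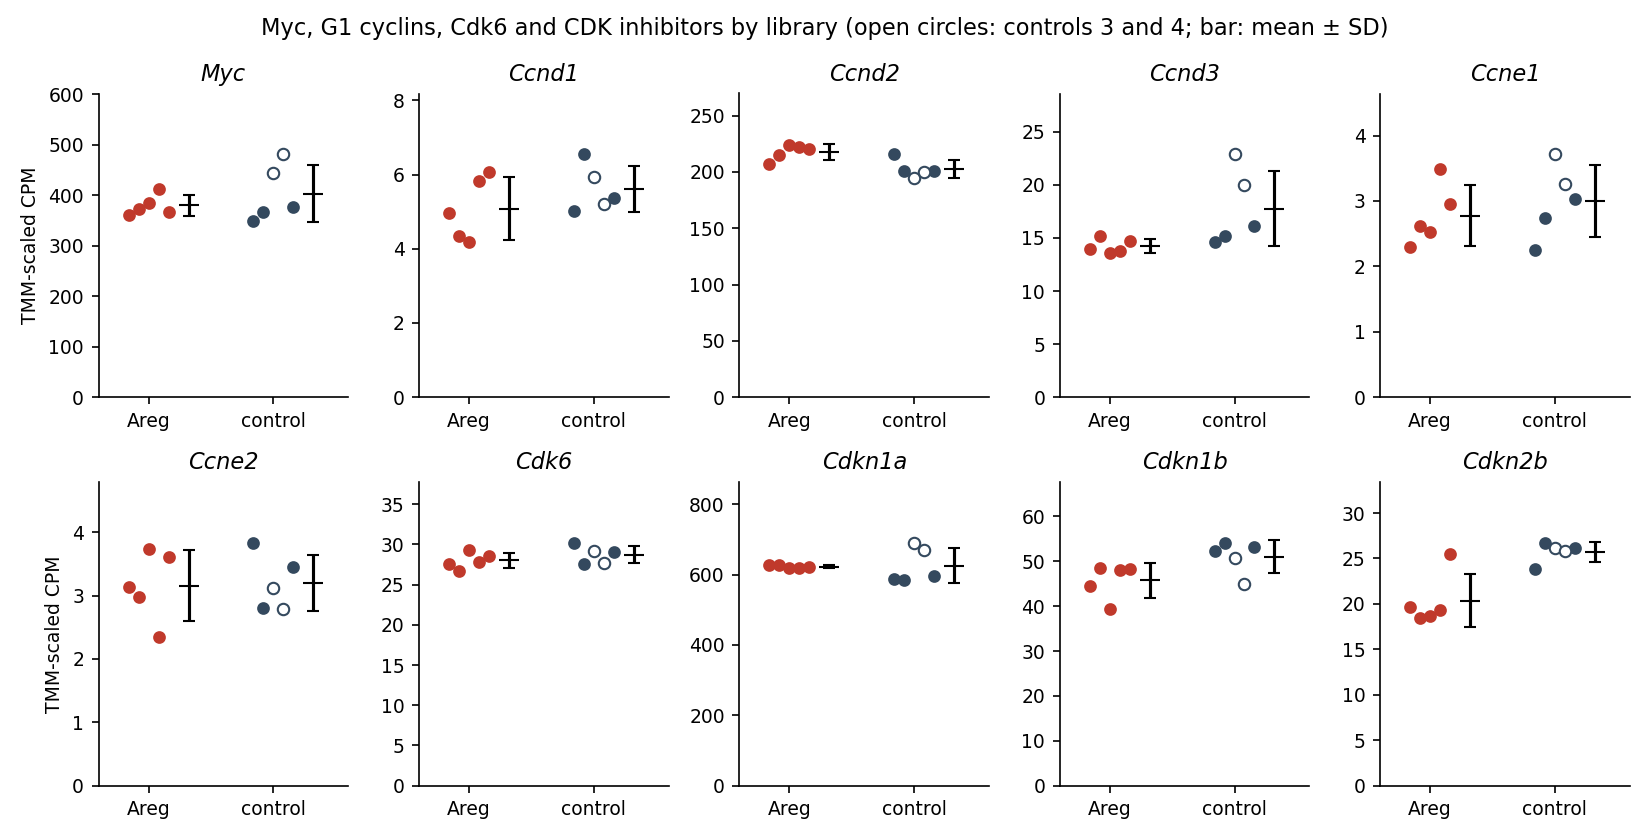
TMM-scaled CPM (vertical axes, from 0) of the 10 genes in each library, Areg libraries to the left of control libraries. Points are libraries, open circles are controls 3 and 4, and bars are the mean ± SD of 5 libraries. Cdkn2b lay at 18.4 to 19.7 CPM in 4 Areg libraries and at 25.5 CPM in the other one, against 23.8 to 26.7 CPM in controls, and controls 3 and 4 were the highest controls for Myc, Ccnd3, Ccne1 and Cdkn1a.

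Myc (chromosome 15, 61985391 to 61990374, plus strand, GRCm38) encodes the transcription factor that drives ribosome production and growth, and is a textbook immediate response to growth factors. It had 361, 373, 385, 413 and 366 CPM in Areg libraries 1 to 5, against 348, 366, 443, 481 and 376 CPM in controls 1 to 5. All Areg libraries lay inside the control range, whose upper end came from controls 3 and 4. The means were 379 ± 20.6 CPM with Areg and 403 ± 56.4 CPM in controls (SD, n = 5 each), which is -0.09 on the log2 scale (SE 0.08, edgeR adjusted p = 0.488). As a ratio this was 0.942, with a 95% interval of 0.840 to 1.06. Without controls 3 and 4, an alternative added with results of these data known, the log2 fold change was 0.06 (adjusted p = 0.358). It was 0.02 (adjusted p = 0.858) after the trend of each library with transcript length and GC content was removed, and 0.11 (adjusted p = 0.0900) with both changes, so its sign was not settled. Controls 3 and 4 exceeded controls 1, 2 and 5 by a ratio of 1.27, and 23.2% of all genes also had both of these controls above the other 3. They were both above for 4 of the 10 genes and both below for Ccnd2 and Cdkn1b, where 22.6% of all genes had both below. The part of their higher hepatocyte markers in this was not tested.

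The mouse annotation gives Myc 8 transcripts, of which 4 held at least 10% of its TPM (kallisto's level per transcript length). Myc-201 and Myc-205 have the same ends and had the same value in every library, 91.1 ± 4.94 TPM with Areg and 100 ± 13.8 TPM in controls, so kallisto could not tell them apart. Myc-206 stood at 75.0 ± 6.79 TPM with Areg and 74.3 ± 2.91 TPM in controls, and Myc-204, which starts further downstream, at 41.0 ± 7.70 and 40.1 ± 4.17 TPM. None of the 4 was called (edgeR adjusted p from 0.742 to 0.928).

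The D-type cyclin genes encode the partners of Cdk4 and Cdk6, and Ccnd2 made up most of them here. It held 79.0% ± 2.03 of their summed TPM with Areg and 74.4% ± 5.18 in controls, with Ccnd3 at 18.1% ± 2.188 and 22.4% ± 5.42 and Ccnd1 at 2.91% ± 0.422 and 3.21% ± 0.669 (SD, n = 5 each). The sum was 78.4 ± 5.88 TPM with Areg and 81.7 ± 10.8 TPM in controls. Ccnd1, often used as the readout of growth factor signalling, was thus the least abundant of the 3 in both groups.

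Ccnd2 (chromosome 6, 127125162 to 127152193, minus strand) had 207, 215, 224, 222 and 220 CPM in Areg libraries 1 to 5, against 216, 201, 195, 199.7 and 200.6 CPM in controls. The groups overlapped only through control 1, which lay above Areg libraries 1 and 2, while all 5 Areg libraries lay above the other 4 controls. The log2 fold change was 0.10 (SE 0.04, edgeR adjusted p = 0.105), which is 7.54% in the fit with a 95% interval of the ratio of 1.01 to 1.15. It was called in 3 of 24 alternatives, without control 1 (adjusted p = 0.0354), after the length and GC trend was removed (0.0317), and with that trend removed and controls 3 and 4 left out (0.0116). On summed TPM the difference was smaller, at 62.0 ± 5.87 TPM with Areg and 60.6 ± 7.54 TPM in controls. Short forms weigh on this sum. Ccnd2-203 (127 bases, at most 2 counts) reached 12.6 TPM in an Areg library, and Ccnd2-206 (627 bases) 21.5 TPM in a control. The main form Ccnd2-201, which held 88.4% of the gene's TPM, stood at 55.8 ± 1.91 and 52.6 ± 4.75 TPM (edgeR adjusted p = 0.247).

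Ccnd3 (chromosome 17, 47505051 to 47599691, plus strand) had 13.96, 15.2, 13.6, 13.8 and 14.7 CPM in Areg libraries 1 to 5, against 14.6, 15.2, 22.9, 19.98 and 16.1 CPM in controls. The groups overlapped only through control 1. Control 2 lay barely above the highest Areg library (15.171 against 15.163 CPM), control 5 lay above every Areg library, and controls 3 and 4 lay above all other libraries. The log2 fold change was -0.30 (SE 0.11, edgeR adjusted p = 0.0703), and DESeq2 called it (adjusted p = 0.0496), as did edgeR without control 1 (0.0306) or control 2 (0.0453). Without controls 3 and 4 it was -0.10 (adjusted p = 0.460), and after the length and GC trend was removed -0.11 (adjusted p = 0.421). Ccnd3 overlaps Bysl on the opposite strand by 361 bases, and the strand setting of the counting is not given in the sources used here.

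Of 21 Ccnd3 transcripts, Ccnd3-205 held 73.2% of the TPM and starts at the downstream site shown above. It was present at 11.6, 11.3, 9.60, 10.96 and 11.6 TPM in Areg libraries 1 to 5, against 13.4, 13.1, 12.1, 13.8 and 11.99 TPM in controls (log2 fold change -0.19, edgeR adjusted p = 0.448). All 5 values with Areg were below all 5 in controls, but the form was not called. The share of all transcripts that separate in this way was not counted, and the split between forms is kallisto's estimate. The short form Ccnd3-208 (931 bases) had 14.97 and 5.12 TPM in controls 3 and 4, against 0.06 to 3.92 TPM in the Areg libraries and 0 to 3.48 TPM in the other controls, so much of the surplus of controls 3 and 4 was assigned to it. Its log2 fold change was -1.33 (adjusted p = 0.778). Transcripts that start within 500 bases of the upstream site, 13 in number, held 0.142 ± 0.279 TPM with Areg and were listed at 0 in every control, while those at the downstream site held 11.3 ± 0.765 TPM with Areg and 13.4 ± 0.782 TPM in controls.

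Ccnd1 (chromosome 7, 144929931 to 144939925, minus strand) had 4.97, 4.35, 4.18, 5.84 and 6.08 CPM in Areg libraries 1 to 5, against 5.02, 6.55, 5.92, 5.21 and 5.38 CPM in controls. The ranges overlapped broadly. With 56 to 111 counts per library, the log2 fold change was -0.15 (SE 0.14, edgeR adjusted p = 0.491), and the 95% interval of the ratio was 0.741 to 1.10. It had no call in any of 24 alternatives and kept its sign in all of them, from -0.22 to -0.08. LTO1 lies on the opposite strand and shares 1771 bases with it, at 18.9 CPM with Areg and 19.1 CPM in controls, so Ccnd1 values are uncertain.

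Cdk6 (chromosome 5, 3341485 to 3531008, plus strand), the kinase that D-type cyclins activate together with Cdk4, had 27.6, 26.7, 29.3, 27.8 and 28.6 CPM in Areg libraries 1 to 5, against 30.2, 27.6, 29.2, 27.7 and 29.0 CPM in controls. Its values were among the steadiest, with a coefficient of variation of 3.48% with Areg and 3.84% in controls. The log2 fold change was -0.04 (SE 0.06, edgeR adjusted p = 0.684), with a 95% interval of the ratio of 0.896 to 1.06. Cdk4, the other such kinase, was far more abundant, at 387 TPM with Areg and 416 TPM in controls, where Cdk6 had 5.10 ± 0.948 and 5.46 ± 1.29 TPM. Cdk4 had a log2 fold change of -0.03 (adjusted p = 0.760).

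The E-type cyclin genes, whose products activate Cdk2, were both low. Ccne1 (chromosome 7, 38097984 to 38107534, minus strand) had 2.29, 2.61, 2.52, 3.49 and 2.96 CPM in Areg libraries 1 to 5, against 2.26, 2.74, 3.72, 3.25 and 3.03 CPM in controls. Ccne2 (chromosome 4, 11191351 to 11204779, plus strand) had 3.13, 2.97, 3.73, 2.35 and 3.61 CPM with Areg, against 3.83, 2.81, 3.11, 2.79 and 3.45 CPM in controls. Their groups overlapped over most of the range. Log2 fold changes were -0.10 (SE 0.17, edgeR adjusted p = 0.737) for Ccne1 and -0.02 (SE 0.16, adjusted p = 0.953) for Ccne2.

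Precision was lowest for this pair. Counts per library were 35 to 54 for Ccne1 and 30 to 74 for Ccne2, and the 95% intervals of the ratio were 0.723 to 1.203 and 0.779 to 1.2495. Neither was called in any of 24 alternatives. Each gene held a near equal share of the pair's TPM, with Ccne1 at 49.4% ± 3.08 with Areg and 51.1% ± 6.19 in controls. This split is uncertain, since Ccne1-204, a form of 608 bases with 1 to 10 counts per library, held 38.6% of the TPM of Ccne1. Ccne2 shares 5622 bases with Ints8 on the opposite strand, at 42.9 CPM with Areg and 39.4 CPM in controls, and Ccne2-205, the form with the largest share of its TPM over the 10 libraries together (42.0%), is a short one with no annotated protein and at most 8 counts in a library. Its values are therefore uncertain.

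**Figure D2:**
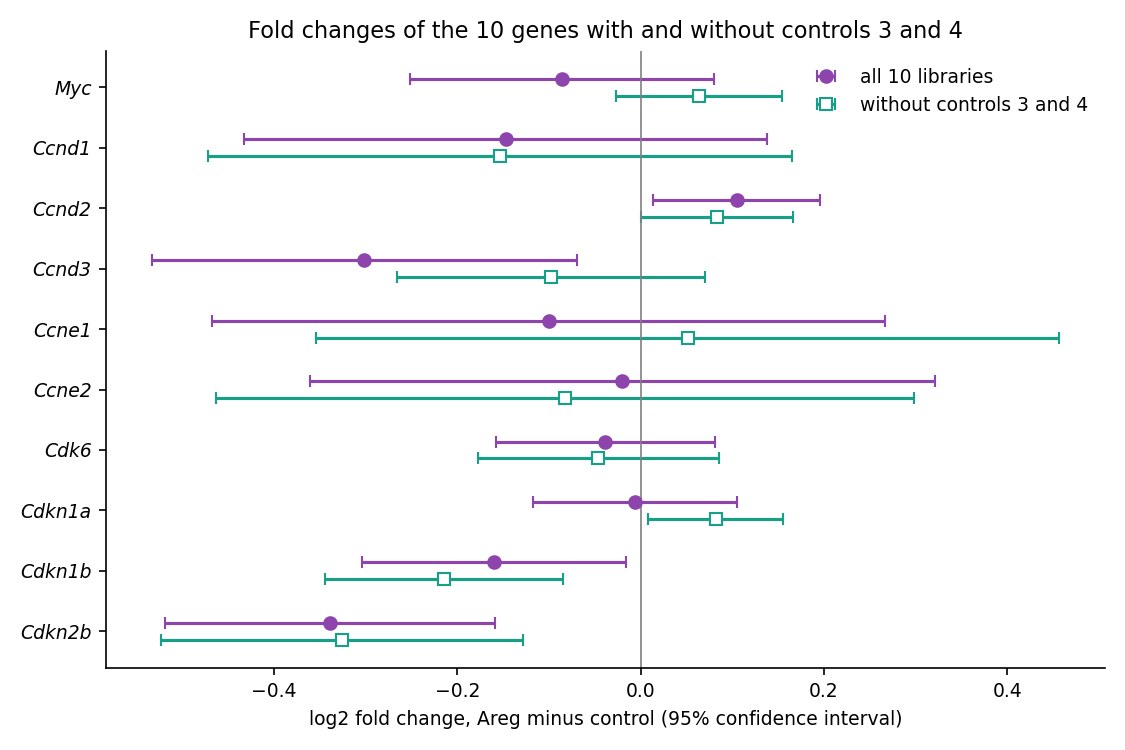
Log2 fold change of each gene, Areg minus control (horizontal axis), with its 95% confidence interval, for all 10 libraries (filled circles) and without controls 3 and 4 (open squares). The intervals are not adjusted for multiple testing. Before that adjustment, 4200 of the 13362 genes fell below the 0.05 threshold in the edgeR fit to all libraries. For Cdkn2b, Cdkn1b and Ccnd2 both intervals lie on 1 side of 0, but only Cdkn2b was called in both fits. Of the others, Cdkn1b was called without controls 3 and 4 and Ccnd2 in neither fit. The interval excludes 0 for Ccnd3 with all libraries only, and for Cdkn1a without these controls only. Myc is at -0.09 with all libraries and 0.06 without these controls, and Ccnd3 at -0.30 and -0.10.

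The inhibitor Cdkn2b (chromosome 4, 89306299 to 89311039, minus strand) encodes a protein that binds Cdk4 and Cdk6 and is known as a target of TGF-beta signalling. It had 19.7, 18.4, 18.7, 19.4 and 25.5 CPM in Areg libraries 1 to 5, against 23.8, 26.7, 26.2, 25.8 and 26.1 CPM in controls. Of the Areg libraries 4 were below every control, and Areg library 5 lay within the control range. The means were 20.3 ± 2.91 CPM with Areg and 25.8 ± 1.11 CPM in controls (SD, n = 5 each). Cdkn2b fell by 0.34 on the log2 scale (SE 0.09, edgeR adjusted p = 0.0124), a ratio of 0.791 with a 95% interval of 0.698 to 0.896. Without Areg library 5 the log2 fold change was -0.43 (adjusted p = 0.00129).

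Cdkn2b was called in 22 of 24 alternatives, and the call held without controls 3 and 4 (log2 fold change -0.33, adjusted p = 0.0236). It was lost after the length and GC trend was removed (-0.24, adjusted p = 0.0658) and with both changes (-0.29, adjusted p = 0.0534). The gene has 1 annotated transcript, Cdkn2b-201, at 26.6 ± 3.76 TPM with Areg and 34.5 ± 1.14 TPM in controls, and in the test over 36269 transcripts its adjusted p was 0.171. That test called 281 transcripts (0.775%), and none of the 25 tested forms of the 10 genes (3 had an unadjusted p under 0.05), also with DESeq2's size factors. Stellate cell markers were also lower with Areg as a sum, as given above. The largest differences in CPM were in Ecm1 (2946 CPM with Areg, 3537 CPM in controls) and Reln (1705 and 1897 CPM). As a share of their control level, Lrat (32.4 and 44.9 CPM) and Lhx2 (18.6 and 23.2 CPM) fell more than these. Hgf (513 and 469 CPM) and Rgs5 (845 and 803 CPM) had higher means with Areg, and the other listed markers lower ones. The part of these markers in the lower Cdkn2b was not tested.

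Cdkn1b (chromosome 6, 134920401 to 134925513, plus strand), whose protein restrains Cdk2 in resting cells, had 44.5, 48.6, 39.5, 48.1 and 48.4 CPM in Areg libraries 1 to 5, against 52.3, 54.1, 50.7, 44.9 and 53.2 CPM in controls. All Areg libraries were below 4 of the controls, and control 4 lay among the Areg libraries. The log2 fold change was -0.16 (SE 0.07, edgeR adjusted p = 0.119), a ratio of 0.895 with a 95% interval of 0.810 to 0.989. In the alternatives it was called in 3 of 24. These were the fit without controls 3 and 4 (-0.21, adjusted p = 0.0219), the fit with the length and GC trend removed (-0.24, adjusted p = 0.00981) and the fit with both (-0.25, adjusted p = 0.00608).

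Without controls 3 and 4 the groups did not overlap for 2 of the 10 genes, Cdkn1b and Cdkn1a, against 22.2% of all genes, and 2 of the 10 were called, both lower (Cdkn1b and Cdkn2b). In that fit 15.9% of all genes were called, 8.38% higher and 7.53% lower. After the length and GC trend was removed, Ccnd2 was called higher and Cdkn1b lower, where 8.32% of all genes were higher and 5.22% lower. With both changes Ccnd2 and Cdkn1a were called higher and Cdkn1b lower, where 7.84% of all genes were higher and 5.54% lower. Within Cdkn1b, the form Cdkn1b-201 stood at 12.1 ± 2.99 TPM with Areg and 16.6 ± 2.43 TPM in controls (log2 fold change -0.43, unadjusted p = 0.0306, adjusted p = 0.326). The longer Cdkn1b-202 stood at 8.48 ± 1.06 TPM with Areg and 9.13 ± 1.205 TPM in controls, and Cdkn1b-203 at 5.73 ± 2.75 and 4.07 ± 2.95 TPM. Reads that fit more than 1 of these forms are divided by kallisto's estimate, so the split is less certain than the sum.

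**Figure D3:**
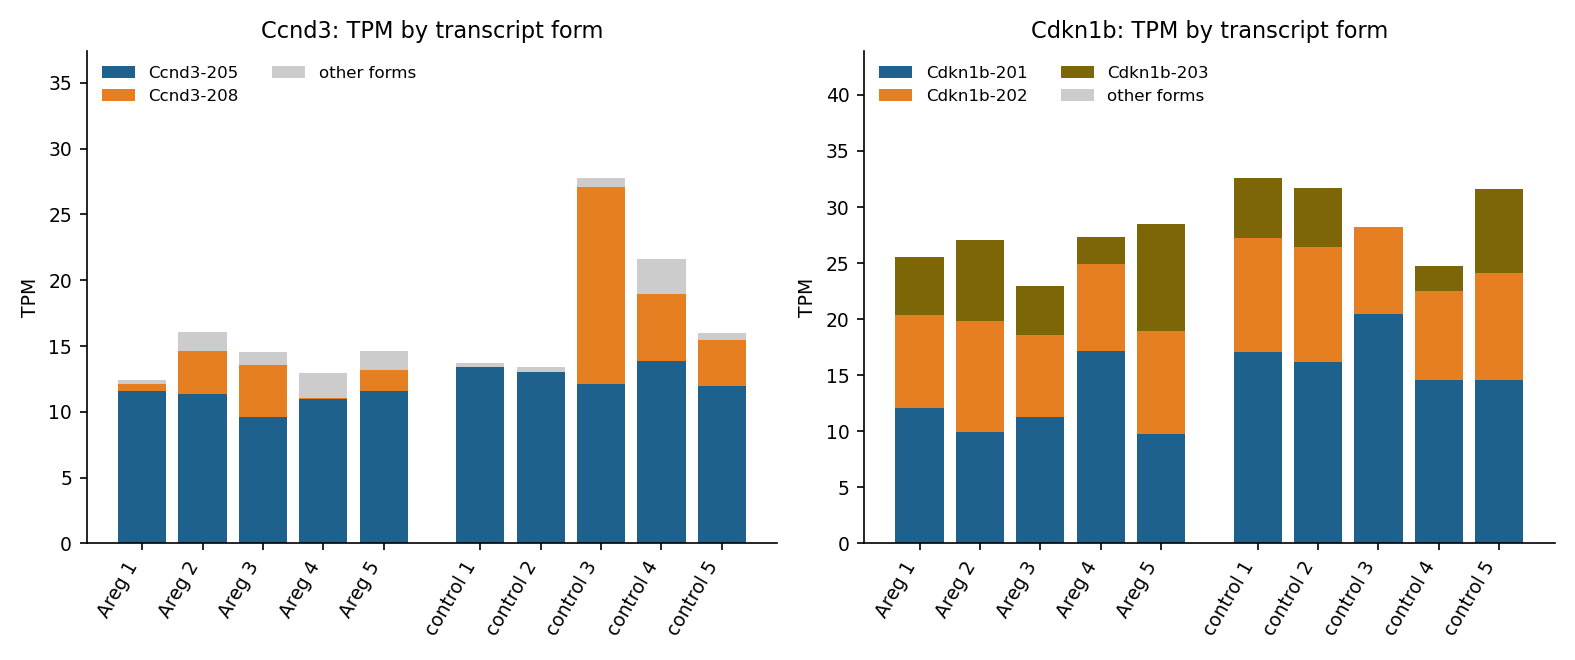
TPM of Ccnd3 (left) and Cdkn1b (right) in each library, stacked by transcript form, with the Areg libraries to the left of the controls. Ccnd3-205 is at 9.60 to 11.6 TPM with Areg and 11.99 to 13.8 TPM in controls, and Ccnd3-208 stands out at 14.97 TPM in control 3. Cdkn1b-201 is the most abundant form of Cdkn1b in all 10 libraries.

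Cdkn1a (chromosome 17, 29090976 to 29100727, plus strand), the CDK inhibitor gene best known as a target of p53, was the most abundant of the 10 genes. It had 628, 626, 617, 620 and 621 CPM in Areg libraries 1 to 5, against 586, 586, 690.3, 669 and 595 CPM in controls. The Areg libraries lay within 1 narrow band, with a coefficient of variation of 0.716%, above controls 1, 2 and 5 and below controls 3 and 4, whose group had a coefficient of variation of 8.05%. The log2 fold change was -0.01 (SE 0.05, edgeR adjusted p = 0.954), with a 95% interval of the ratio of 0.922 to 1.08. Without controls 3 and 4 it was 0.08 (adjusted p = 0.125), and with the length and GC trend removed as well it was 0.12 and was called (adjusted p = 0.0109). Its sign and call thus rested on controls 3 and 4 and on the trend.

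Of the TPM of Cdkn1a, 95.5 to 97.0% in Areg libraries and 94.9 to 96.8% in controls came from 2 transcripts that start at the downstream site, the window shown above with GC boxes at -104 and -46. The upstream site accounted for 0.564 to 2.11% with Areg and 0.573 to 1.52% in controls. The main form, Cdkn1a-201, stood at 532 ± 4.72 TPM with Areg and 543 ± 27.5 TPM in controls (edgeR adjusted p = 0.999).

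Levels per transcript length covered a wide range and kept nearly the same order in both groups. With Areg, Cdkn1a averaged 577 ± 8.64 TPM and Myc 323 ± 16.3 TPM, followed by Ccnd2 at 62.0, Cdkn2b at 26.6, Cdkn1b at 26.3, Ccnd3 at 14.1, Cdk6 at 5.10, Ccne2 at 3.64, Ccne1 at 3.54 and Ccnd1 at 2.28 TPM. In controls, Cdkn1a averaged 592 ± 28.6 TPM and Myc 347 ± 36.8 TPM, followed by Ccnd2 at 60.6, Cdkn2b at 34.5, Cdkn1b at 29.8, Ccnd3 at 18.5, Cdk6 at 5.46, Ccne1 at 4.45, Ccne2 at 4.28 and Ccnd1 at 2.57 TPM. Neighbours whose libraries overlapped were Cdkn2b with Cdkn1b and Cdk6 with Ccne2 and Ccne2 with Ccne1 in the Areg group. In controls they were Cdkn1b with Ccnd3, Cdk6 with Ccne1 and Ccne1 with Ccne2, while Cdkn2b and Cdkn1b did not overlap. Cdkn1a ranked 242 with Areg and 235 in controls among the 13362 genes by mean TPM, Myc 444 and 407, and Ccnd1 11123 and 11039. The place of Ccnd1 below Ccne1 and Ccne2 is uncertain, since short forms with few counts held much of their TPM. These were Ccne1-204 (38.6% of Ccne1, 1 to 10 counts) and Ccne2-205 (42.0% of Ccne2, 0 to 8 counts). With Areg, the long forms Ccne1-201 and Ccne2-202 stood at 2.09 and 1.48 TPM, against 2.26 TPM for Ccnd1-201. In controls they stood at 2.10 and 1.39 TPM, against 2.55 TPM.

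**Figure D4:**
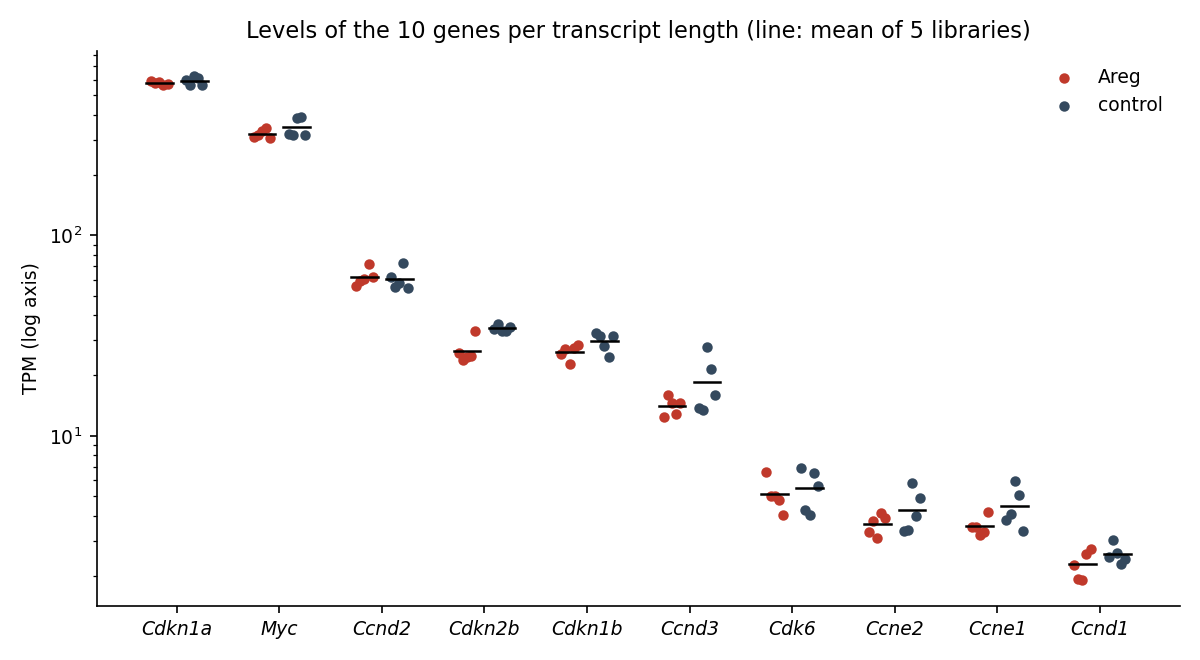
TPM of the 10 genes on a log axis, ordered by their mean in the Areg group, Areg libraries to the left of controls. Points are libraries and lines are means of 5. Cdkn1a and Myc lie well above the others, from 577 and 323 TPM with Areg down to 2.28 TPM for Ccnd1.

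Of the 3 inhibitor genes, Cdkn1a held 91.6% ± 0.805 of the summed TPM with Areg and 90.2% ± 0.932 in controls, Cdkn2b 4.22% ± 0.571 and 5.26% ± 0.369, and Cdkn1b 4.17% ± 0.352 and 4.55% ± 0.612 (SD, n = 5 each). The summed TPM of the 3 was 630 ± 8.41 with Areg and 656 ± 25.5 in controls. These shares count transcripts, not protein.

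Most partners of the 10 genes did not pass the test. Among 16 G1 kinase and pocket protein genes, 1 was called, against 16.7% of all genes. Cdk7, the kinase that activates other CDKs, rose to 65.8 ± 0.409 CPM with Areg, against 58.3 ± 3.83 CPM in controls (log2 fold change 0.17, edgeR adjusted p = 0.0331). The call was lost in 12 of 24 alternatives, and Cdk7 was at 0.05 (adjusted p = 0.545) after the length and GC trend was removed. The retinoblastoma gene Rb1, its relatives Rbl1 and Rbl2, Cdk2 and the other inhibitor genes Cdkn1c, Cdkn2a, Cdkn2c and Cdkn2d were not called. None of 8 E2F factors and partners was called by edgeR (1 had an unadjusted p under 0.05), nor in any alternative, DESeq2 and limma-voom among them. The smallest p among them were those of E2f5, with a log2 fold change of 0.18 (adjusted p = 0.0683) and non-overlapping groups, and E2f6, at -0.09 (adjusted p = 0.292).

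In the Myc and Max network, 0 of 11 tested genes rose and 2 fell, where 8.34% of all genes rose and 8.32% fell. Both encode Max partners that oppose Myc. Mxd4 fell to 48.3 ± 4.44 CPM with Areg, against 60.7 ± 3.27 CPM in controls (log2 fold change -0.33, edgeR adjusted p = 0.00286), and was called in every alternative. Mnt fell to 125.2 ± 4.96 CPM with Areg, against 155 ± 24.4 CPM in controls (-0.31, adjusted p = 0.0222), with a log2 fold change of -0.14 (adjusted p = 0.0236) without controls 3 and 4. After the length and GC trend was removed, Mxd4 was at -0.20 (adjusted p = 0.0203) and Mnt at -0.08 and not called (adjusted p = 0.261).

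Of 28 reported Myc target genes, 12 rose and none fell, where 8.34% of all genes rose. Their median log2 fold change was 0.15, against -0.01 over all genes, and across the alternatives 6 to 17 of them rose and none fell. Many encode nucleolar and ribosome assembly proteins, a group whose rise in these libraries was already known when the list was made, so it gives no independent support. Npm1, which encodes a nucleolar histone chaperone, rose to 840 ± 34.96 CPM with Areg, against 635 ± 83.3 CPM in controls (log2 fold change 0.40, edgeR adjusted p = 0.0019), and has pseudogenes that can share its reads. Nop58, a core protein of box C/D small nucleolar particles, rose by 0.46 on the log2 scale, Ncl (nucleolin) by 0.35, and Hspd1, a mitochondrial chaperonin, by 0.28. After the length and GC trend was removed, Npm1 was at 0.24 and Nop58 at 0.27, and without controls 3 and 4 Hspd1 was at 0.18, all still called. Pa2g4, which encodes a proliferation-associated protein, rose by 0.24. Odc1, the first enzyme of polyamine synthesis, rose to 1510 ± 35.9 CPM with Areg, against 1298 ± 79.2 CPM in controls (0.22, adjusted p = 0.00758). The Myc gene itself, as given above, lay at 379 and 403 CPM.

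Genes that control the breakdown of Myc, cyclins and inhibitors gave 2 rises and 1 fall among 18 tested, a share close to the 16.7% called over all genes. Usp2, which encodes a deubiquitinase reported to stabilise cyclin D1, had the largest fold change of all the list genes named here. It was present at 3.12 to 4.20 CPM with Areg and 4.41 to 10.9 CPM in controls, with no overlap, and fell by 1.09 on the log2 scale (SE 0.20, edgeR adjusted p = 0.0017). With controls 3 and 4 left out it was at -0.78 (adjusted p = 0.00253). The ubiquitin ligase scaffold genes Cul4b and Cul3 rose by 0.27 and 0.18 on the log2 scale (adjusted p = 0.0150 and 0.0351), with the call lost in 4 and 13 of 24 alternatives. After the length and GC trend was removed they were at 0.14 and 0.01 (adjusted p = 0.0458 and 0.838).

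Downstream of the G1 step, DNA replication and S phase genes gave 1 rise and 1 fall among 28 tested, against 16.7% called over all genes. Cdt1, a licensing factor for replication origins, was present at 4.99 to 6.96 CPM with Areg and 6.55 to 9.04 CPM in controls and fell by 0.45 on the log2 scale (edgeR adjusted p = 0.0201), with the call lost in 6 of 24 alternatives. Pcna, the sliding clamp of DNA polymerases, rose by 0.17 (adjusted p = 0.0397), with the call lost in 14. After the length and GC trend was removed, Cdt1 was at -0.27 (adjusted p = 0.126) and Pcna at 0.04 (adjusted p = 0.577). The groups overlapped for both. None of 19 mitosis genes was called by edgeR, 0 had an unadjusted p under 0.05, and none was called in any alternative, DESeq2 and limma-voom among them. Their proliferation markers were low, with Mki67 at 7.69 CPM with Areg and 7.99 CPM in controls and Top2a at 5.50 and 5.81 CPM. The smallest p were those of Cenpf, at 1.76 ± 0.165 CPM with Areg and 1.23 ± 0.469 CPM in controls (adjusted p = 0.192), and Ube2c, at 1.75 ± 0.332 and 1.34 ± 0.296 CPM (adjusted p = 0.262).

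Among 24 reported p53 target genes other than Cdkn1a, 3 rose and 4 fell, where 8.34% of all genes rose and 8.32% fell. Sesn2, a stress-induced regulator of TORC1, fell to 162 ± 6.30 CPM with Areg, against 204 ± 12.5 CPM in controls (log2 fold change -0.33, edgeR adjusted p = 0.000421). Btg2, an antiproliferative immediate response gene, rose to 83.9 ± 3.97 CPM with Areg, against 67.0 ± 4.04 CPM in controls (0.33, adjusted p = 0.000957). The death receptor genes differed in direction, since Fas rose by 0.35 and Tnfrsf10b fell by 0.21 on the log2 scale. Plk2, a stress kinase gene, rose by 0.18, and Gadd45a, a growth arrest gene, fell by 0.16. Sesn2 and Btg2 were called in every alternative, with Sesn2 at -0.13 (adjusted p = 0.0127) after the length and GC trend was removed. The call of Fas was lost in 5 of 24, and after that trend was removed it was at 0.21 (adjusted p = 0.109). A list of antiproliferative genes, made of 5 Btg and Tob genes with Rassf1, Gas1, Gas2 and Gas6, gave 2 rises and 1 fall among 9, against 16.7% called over all genes. These were Btg2 again, the tumour suppressor gene Rassf1, higher by 0.17, and Tob2, with a log2 fold change of -0.27, or -0.17 (adjusted p = 0.0104) with the trend removed.

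Transcription factors reported to act on the 10 genes changed in both directions, with 4 of 26 higher and 4 lower, where 8.34% of all genes rose and 8.32% fell. Foxo3, a forkhead factor reported to act on Cdkn1b and Ccnd2, fell to 57.0 ± 1.36 CPM with Areg, against 74.3 ± 4.93 CPM in controls (log2 fold change -0.38, edgeR adjusted p = 0.000299). Egr1, an immediate-early factor downstream of ERK, rose to 297 ± 13.6 CPM with Areg, against 229 ± 20.7 CPM in controls (0.37, adjusted p = 0.000528). Within the ETS family, Ets1 rose by 0.32 and Ets2 fell by 0.26 on the log2 scale, and within the KLF family Klf6 rose by 0.24 and Klf4 fell by 0.21. Foxo3, Egr1 and Ets1 were called in all 24 alternatives. After the length and GC trend was removed, Foxo3 was at -0.23 and Klf6 at 0.14, both still called, and Klf4 at -0.08 and not called (adjusted p = 0.144).

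**Figure D5:**
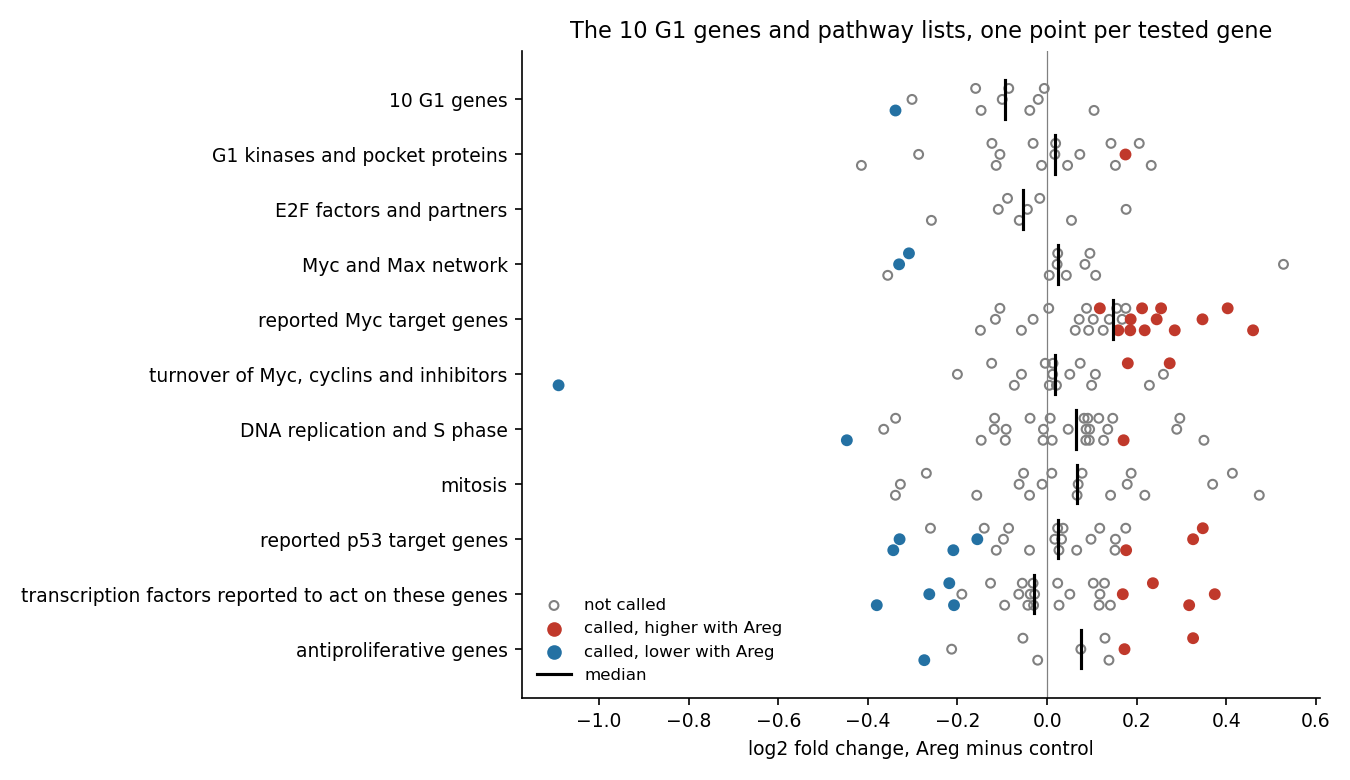
Log2 fold change, Areg minus control (horizontal axis), of each tested gene of the 10 G1 genes and of 10 pathway lists. Filled points were called, red higher and blue lower with Areg, open points were not, and bars are medians. The reported Myc targets have a median of 0.15 with 12 called higher, and the 10 genes a median of -0.09 with 1 called lower.

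The genes whose pattern over the 10 libraries was most like that of Myc, by the root mean square difference of centred log2(CPM + 1) values, were Rnf44, Tmem214, Crtc2, Raver1 and Tbx2, at 0.0401 to 0.0449, where the median over 8614 genes was 0.181. In each of them controls 3 and 4 lay above controls 1, 2 and 5, for Rnf44 at 332 to 339 CPM against 261 to 268 CPM. Those most like Cdkn1a were Usp10, Nadk, Cers2, Ppp5c and Sec61a1, at 0.0249 to 0.0312 (median 0.140), and these too were higher in controls 3 and 4, for Usp10 at 99.7 to 101 CPM against 86.0 to 86.7 CPM. For Ccnd1 the nearest genes, Rit1, Mrps26, Arrb2, Scamp5 and Sh3bp5l, were less near, at 0.0950 to 0.102 (median 0.203). Ccnd1 had 56 to 111 counts per library, against 4410 to 7634 for Myc and 6875 to 12245 for Cdkn1a. The part of count noise in its distances and in which genes came nearest was not tested. These distances describe 10 libraries that share the pair of controls standing apart.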

How the data were processed

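The deposited files hold, per the file headers, kallisto's estimated counts per transcript (expected counts that need not be whole), TPM per transcript, and transcript and effective lengths in bases, for 118489 transcripts in each of 10 libraries. Libraries were made with TruSeq chemistry after poly-A selection, per the labels' protocols. Listed in the submitters' processing notes are the build GRCm38.p6 and the tools bcl2fastq 2.19, kallisto 0.44.0 and DESeq2, without their roles. Neither the transcript set nor the strand setting is given in the sources used here. Reads that fit several transcripts are divided by kallisto's estimate, which leaves overlapping and near-identical genes uncertain.

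GENCODE M21 (GRCm38) gave genes for 116816 transcripts. A further 1673, with 0.7356 to 0.7776% of counts, were left out. Counts were summed per gene (36047 genes) and rounded. Areg was compared with control by edgeR 4.0.16 in R 4.3.3 (robust quasi-likelihood, TMM, filterByExpr with a minimum count of 10 and a minimum total of 15, no covariates), with Benjamini-Hochberg adjustment over 13362 genes and a threshold of 0.05. The biological coefficient of variation was 9.37%. Transcripts were tested likewise. The fit was also run on simulated counts with known changes. Those counts held no controls standing apart and no length or GC trend, so they cannot speak to the effect of either here. Pairs of replicates differed by more than sampling noise, with a chi-square over its degrees of freedom of 3.60 to 46.5, so none was treated as another's copy. This does not show that they came from separate animals or cultures.

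The 10 genes and all lists were chosen with earlier results of these data known. Of each list, up to 6 called genes with the smallest p are named, or up to 2 where none was called. The 5 nearest protein-coding genes with at least 10 CPM are named for Myc, Ccnd1 and Cdkn1a, and transcripts with at least 10% of a gene's TPM. Cdk4, Rb1, Rbl1, Rbl2, Cdk2, Cdkn1c, Cdkn2a, Cdkn2c, Cdkn2d, Mxd1, Mxi1, Mga, Mycn, Mki67, Top2a and the overlapping genes were named after their values were seen. So were the marker genes Cdh5, Ecm1, Reln, Lrat, Lhx2, Hgf and Rgs5. Alternatives were other factors, filters and tests (DESeq2 1.42.0, limma 3.58.1), a length offset, log2(TPM + 1) and log2(TPM + 0.1), the replicate number as a block, and the loss of any 1 library. A fit without controls 3 and 4 and 1 with each library's trend in length and GC content removed were added with results known.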

Additional observations from a re-analysis of the deposited data

Results flagged for a closer look

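In 84 groups of 5 libraries tested for a sample far from the others, 2 stood out, where chance gives about 1 in 20, or 4.2. Cdkn2b was at 25.5 CPM in Areg library 5, against 18.4 to 19.7 CPM in the other Areg libraries. Ube2c, a mitotic ubiquitin-conjugating enzyme gene, was at 2.32 CPM in Areg library 3, against 1.45 to 1.70 CPM in the other Areg libraries.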

How the results depend on the processing

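Of the 10 genes, 1 was called in the main test, 2 with DESeq2 (Cdkn2b and Ccnd3), 2 without controls 3 and 4, 2 after the length and GC trend was removed (Ccnd2 and Cdkn1b), 3 with both changes (Ccnd2, Cdkn1a and Cdkn1b), and 1 to 3 with each library left out. Over all genes, DESeq2 called 22.2% (2625 of 11806), against 16.7% in the main test. The share was 15.9% without controls 3 and 4, 13.5% after the trend was removed and 13.4% with both changes. In numbers, 2226 genes were called in the main test, 1149 with the length offset, 856 on log2(TPM + 1) and 868 on log2(TPM + 0.1). With each library left out it was 1364 to 2314, the lowest without Areg 2. The split of higher and lower genes was 1114 and 1112 in the main test, 865 and 1272 on library totals alone, 322 and 534 on log2(TPM + 1), and 1112 and 698 after the length and GC trend was removed. Of transcripts, 281 were called in the main test, 168 without controls 3 and 4, 21 with the replicate block and 39 to 180 with each library left out. Log2 fold changes changed sign without controls 3 and 4 for Myc (0.064), Ccne1 (0.051) and Cdkn1a (0.082), after the length and GC trend was removed for Myc (0.023), Cdkn1a (0.090) and Cdk6 (0.025), and with both for Myc (0.11), Ccne1 (0.034), Cdkn1a (0.12) and Cdk6 (0.046). Cdkn1a was also at 0.013 with no filter on low counts. With each library left out, Cdkn1a ranged from -0.026 to 0.035 and Ccne2 from -0.086 to 0.064. The cause was not tested. Same-numbered libraries did not deviate together throughout (correlations 0.037, 0.114, -0.059, 0.224 and 0.024), so the numbers were not taken as pairs. With the replicate block, 2357 genes and 1 of the 10 were called, and Cdkn2b was at -0.35 (adjusted p = 0.0122). Low counts limit Ccne1, Ccne2 and Ccnd1, whose intervals were the widest.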
